A study of Homo sapiens with 12 samples.

Results

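The 31 genes described here make sterols and fatty acids or control that synthesis through the sterol regulatory element-binding proteins (SREBPs). They were chosen by function: 18 enzymes of cholesterol synthesis, 7 enzymes of fatty acid synthesis and desaturation, 5 genes for the SREBPs and their regulators, and the sterol carrier STARD4. All 31 were found by Ensembl identifier among 60616 genes, and all passed the filter on low counts in both experiments. Du145 is a human prostate cancer cell line, and bulk RNA-seq was performed on 12 libraries of it.

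The resistance experiment held 2 libraries each of parental cells without drug (Du145-P), of a docetaxel-resistant line (Du145-DtxR) and of a cabazitaxel-resistant line (Du145-CbzR). Docetaxel and cabazitaxel are taxanes, drugs that stabilize microtubules. Both resistant lines came from Du145 through repeated 72 h exposures that rose from 1 nM to 125 nM, with parental cells passaged in parallel. Each resistant line is a single selection, so what the drug did and what 1 derived population carried cannot be told apart. The knockdown experiment held 3 libraries each of Du145-DtxR cells given a control siRNA (siControl) or an siRNA against BRPF1 (siBRPF1), a chromatin reader of the MOZ/MORF acetyltransferase complex. The siRNA medium was removed after 24 h and RNA was taken 48 h later. Both knockdown groups therefore carry docetaxel resistance, and no parental library was part of that experiment. The comparisons asked how the synthesis genes stood in each resistant line and after loss of BRPF1, and whether the sterol and the fatty acid branch moved alike.

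SREBPs are made as membrane proteins of the endoplasmic reticulum. When sterols are scarce, SCAP escorts them to the Golgi, where a pair of proteases releases the part that enters the nucleus and switches on its targets, and when sterols are plentiful, INSIG proteins hold SCAP back. SREBF2 mainly drives the cholesterol genes and SREBF1 mainly the fatty acid genes, although the target sets overlap. In prostate cancer cells this pathway is known for supplying membrane lipids and the sterols from which steroid hormones are made.

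The promoters show what the members share at their start sites. RefSeq promoter windows on GRCh38.p14, from 250 bases before to 50 bases after a start site, were matched for 27 of the 31 members. The letters CCAAT, the box that NF-Y binds beside SREBP at many sterol genes, occurred on either strand in 20 of 27 members (74.1%) against 39.7% of all 27305 genes. The GC box GGGCGG, a binding motif of Sp1, was found in 26 of 27 members (96.3%) against 48.3% of all genes. The E-box CACGTG was present in 4 members (14.8%) against 8.77% of genes. A strict sterol regulatory element, TCACNCCAC, was met in SREBF2 alone (3.7% of members) against 1.39% of genes, 133 bases before the start site. All 4 motifs were searched on both strands, matches were allowed to overlap, and a gene counted once if any of its windows held the letters. These matches describe letters and not bound sites. Windows of 6 members whose levels carry the results are given 5′ to 3′ on the gene's strand, with CCAAT or its reverse complement ATTGG and the sterol regulatory element in capitals. SREBF2 (chr22:41832855-41833154, plus strand) is shown for its sterol regulatory element, INSIG1 (chr7:155297628-155297927, plus strand) and STARD4 (chr5:111512486-111512785, minus strand) as sterol-controlled genes that moved apart, MVK (chr12:109573544-109573843, plus strand) and TM7SF2 (chr11:65111622-65111921, plus strand) as the enzymes that set the resistant lines apart most, and SCD (chr10:100346983-100347282, plus strand) as the most abundant member.
SREBF2: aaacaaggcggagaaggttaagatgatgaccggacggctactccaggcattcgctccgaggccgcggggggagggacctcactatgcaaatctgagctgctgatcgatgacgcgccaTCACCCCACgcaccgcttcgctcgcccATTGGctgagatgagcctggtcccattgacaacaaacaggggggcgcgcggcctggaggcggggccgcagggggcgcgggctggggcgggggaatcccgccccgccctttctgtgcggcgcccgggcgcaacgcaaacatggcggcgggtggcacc
INSIG1: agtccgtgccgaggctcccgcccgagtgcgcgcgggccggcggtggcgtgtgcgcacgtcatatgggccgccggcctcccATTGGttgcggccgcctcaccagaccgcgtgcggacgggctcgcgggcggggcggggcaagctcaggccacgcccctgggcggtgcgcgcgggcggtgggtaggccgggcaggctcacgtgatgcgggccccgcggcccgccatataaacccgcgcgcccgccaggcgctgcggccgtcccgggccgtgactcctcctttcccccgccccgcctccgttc
STARD4: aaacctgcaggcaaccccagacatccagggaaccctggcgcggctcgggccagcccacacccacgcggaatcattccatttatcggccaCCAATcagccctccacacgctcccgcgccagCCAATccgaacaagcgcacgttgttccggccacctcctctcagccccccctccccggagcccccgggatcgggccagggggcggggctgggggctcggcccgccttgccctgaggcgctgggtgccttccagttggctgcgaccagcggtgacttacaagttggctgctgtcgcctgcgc
MVK: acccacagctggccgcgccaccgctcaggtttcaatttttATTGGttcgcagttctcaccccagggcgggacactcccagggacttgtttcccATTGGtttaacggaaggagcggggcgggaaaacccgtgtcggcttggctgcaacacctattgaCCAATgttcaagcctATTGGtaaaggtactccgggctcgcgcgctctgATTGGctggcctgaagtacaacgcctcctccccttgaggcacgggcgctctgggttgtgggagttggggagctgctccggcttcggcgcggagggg
TM7SF2: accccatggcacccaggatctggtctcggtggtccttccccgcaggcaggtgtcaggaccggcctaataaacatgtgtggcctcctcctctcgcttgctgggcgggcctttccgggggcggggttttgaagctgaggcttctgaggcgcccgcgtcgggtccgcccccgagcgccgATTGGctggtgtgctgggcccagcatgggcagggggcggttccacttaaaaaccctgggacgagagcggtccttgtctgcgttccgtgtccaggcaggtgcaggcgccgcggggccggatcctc
SCD: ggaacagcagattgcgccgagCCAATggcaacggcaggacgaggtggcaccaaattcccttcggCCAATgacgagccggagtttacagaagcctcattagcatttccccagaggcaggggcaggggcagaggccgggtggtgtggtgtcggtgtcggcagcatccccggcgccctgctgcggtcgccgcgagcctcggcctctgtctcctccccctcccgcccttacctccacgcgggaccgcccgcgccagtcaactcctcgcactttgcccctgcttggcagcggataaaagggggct
MVK held 5 CCAAT matches, STARD4 and SCD 2 each, and SREBF2, INSIG1 and TM7SF2 1 each.

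Depth was 27512422 to 30593573 estimated counts per library across the resistance libraries and 16667822 to 17306275 across the knockdown libraries. Levels are given as CPM, counts relative to a library size scaled by the trimmed mean of M values (TMM), and were compared within an experiment only. A ± after a log2 fold change is its standard error (SE), and adjusted p-values are from edgeR. BRPF1 itself measured 29.4, 30.6 and 30.96 CPM in siControl and 8.96, 8.67 and 8.19 CPM in siBRPF1, 28.4% of the control level (log2 fold change -1.82 ± 0.096, adjusted p = 1.788e-06). The keratins KRT8 and KRT18 were present in every library (94.0 to 612 CPM), whereas the epithelial cadherin CDH1 was at 36.9 ± 2.90 CPM in Du145-P, 1.40 ± 0.36 in Du145-DtxR and 0.715 ± 0.046 in Du145-CbzR (SD, n = 2). The prostate markers KLK2, KLK3 and TMPRSS2 had at most 1 count in any library. The summed leukocyte markers ranged from 15.9 to 18.4 CPM in Du145-P, 71.3 to 74.5 in Du145-DtxR and 44.2 to 46.1 in Du145-CbzR, nearly all of it CD68, while PTPRC had at most 3 counts. Fibroblast markers summed to 11.6 to 12.5, 3.01 to 3.21 and 7.96 to 8.87 CPM in the same order, and endothelial markers stayed below 1 CPM. Mitochondrial transcripts took 14.31% to 15.35% of counts in Du145-P, 8.913% to 9.478% in Du145-DtxR and 12.12% to 12.7% in Du145-CbzR. After siBRPF1 CDH1 was at 0.508 ± 0.25 CPM against 3.59 ± 1.39 CPM in siControl, and KRT18 at 470 ± 41.1 against 279 ± 49.5 CPM (SD, n = 3), neither with overlap, while the summed leukocyte markers overlapped. The part of these differences in the results was not tested.

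In Du145-DtxR cells more of the synthesis genes were lower than higher against parental cells. Of the 5 member genes for the SREBPs and their regulators, 4 were lower and 1 was not called. A gene was called when its Benjamini-Hochberg adjusted p from edgeR's quasi-likelihood test, over 18218 genes, was under 0.05. By that rule 8 of 31 members were higher and 17 lower in Du145-DtxR, beside 31.1% higher and 32.0% lower among all genes tested, which puts members at 25.8% and 54.8%. The median log2 fold change was -0.17 for the members and -0.02 for all genes. In Du145-CbzR cells 15 members were higher and 12 lower against Du145-P, beside 24.4% and 26.3% of all genes, with a median of 0.15 against -0.01. The 2 libraries of each line lay wholly apart from those of Du145-P for 27 members in Du145-DtxR (87.1%) and for 30 in Du145-CbzR (96.8%), beside 80.9% and 76.1% of all genes tested. By the test, 63.1% and 50.7% of all genes were called in either direction. Both contrasts rest on the same Du145-P libraries, and in bulk RNA fewer cells that express a gene and less of its RNA per cell cannot be told apart.

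**Figure D1:**
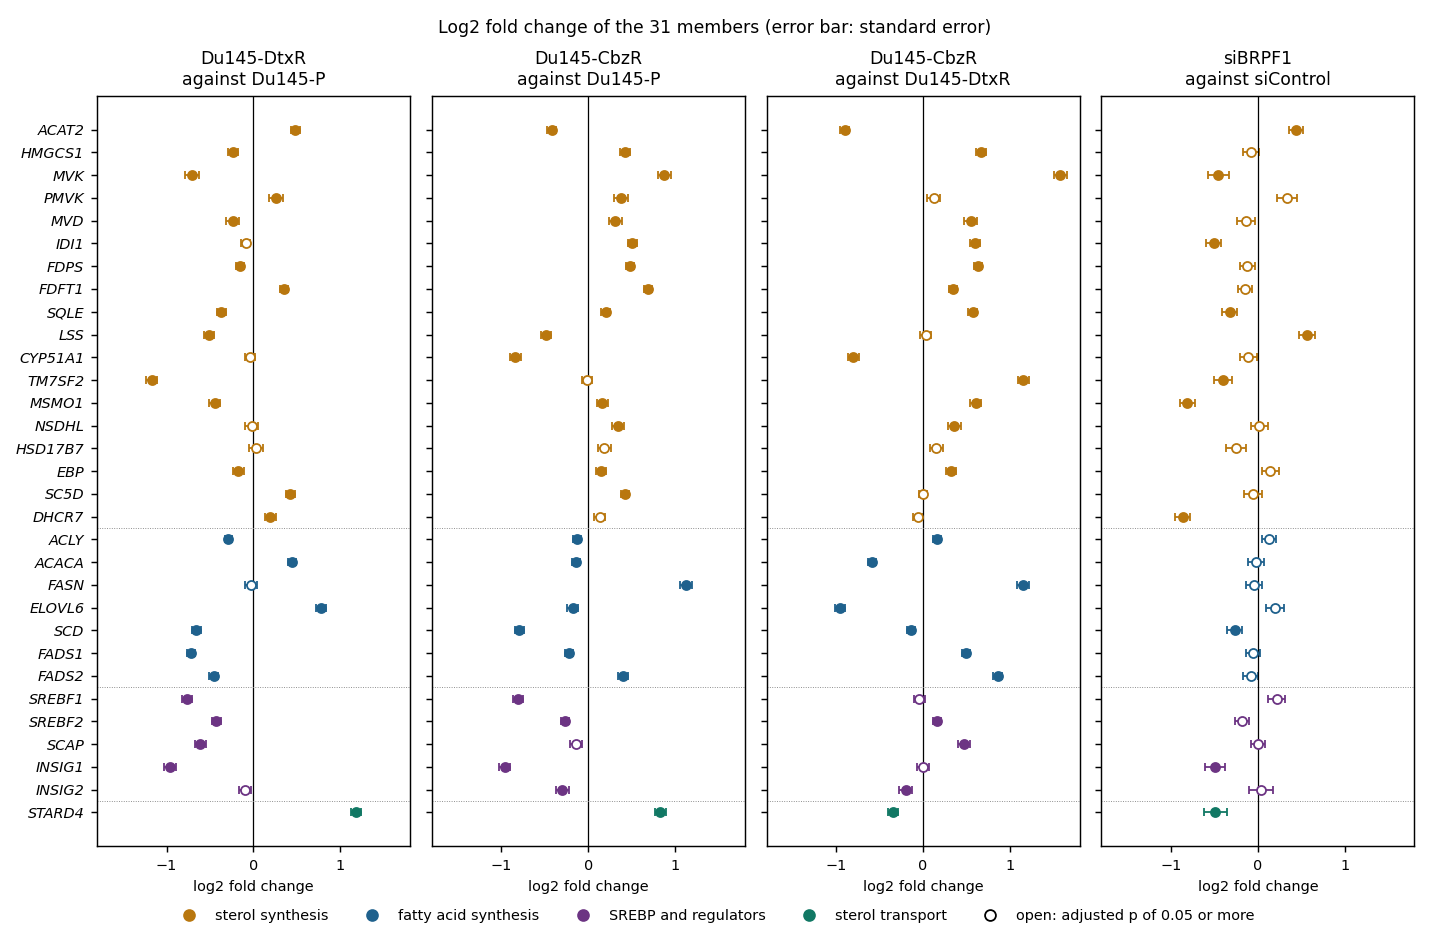
Log2 fold change of each of the 31 members (rows) in the 4 comparisons (panels), with the standard error as the bar and open points for an adjusted p of 0.05 or more. Most points lie left of 0 in Du145-DtxR, the sterol enzymes lie mostly right of 0 in Du145-CbzR, and 20 of 31 points are open after BRPF1 knockdown.

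Of the 5 SREBP genes and regulators, SREBF1, SREBF2, SCAP and INSIG1 were lower in Du145-DtxR and INSIG2 was not called, beside 32.0% of all genes lower, with a median log2 fold change of -0.61. SREBF1, which encodes the SREBP-1 isoforms, measured 66.2 and 66.5 CPM in the Du145-P pair, 39.8 and 38.2 CPM in the Du145-DtxR pair and 38.1 and 37.7 CPM in the Du145-CbzR pair. The resistant lines stood at 0.588 and 0.571 of the parental level, and the difference between them did not pass the test. RAI1, whose exons overlap SREBF1 on the opposite strand, gave -0.18 without a call in Du145-DtxR and -0.28 in Du145-CbzR. The log2 fold change was -0.77 ± 0.057, adjusted p = 2.6e-07 in Du145-DtxR and -0.81 ± 0.057, adjusted p = 3.35e-07 in Du145-CbzR. SREBF2, the gene for SREBP-2, was at 356 and 359 CPM in parental libraries, 274 and 258 CPM in docetaxel-resistant libraries and 291 and 303 CPM in cabazitaxel-resistant libraries. It was lower in both lines (-0.43 ± 0.049, adjusted p = 1.03e-05, and -0.27 ± 0.049, adjusted p = 0.000692), and higher in Du145-CbzR than in Du145-DtxR (0.16 ± 0.049, adjusted p = 0.0132), a call that ended without Du145-DtxR replicate 2 (0.11) or Du145-CbzR replicate 2 (0.13).

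INSIG1, whose protein holds SCAP in the endoplasmic reticulum when sterols are plentiful, showed the steepest fall of the regulators. Its level was 152 and 134 CPM in the Du145-P pair, 77.3 and 69.7 CPM in the Du145-DtxR pair and 72.4 and 74.2 CPM in the Du145-CbzR pair, so that the resistant lines, which overlapped each other, were 1.94-fold and 1.95-fold below parental cells. The log2 fold changes were -0.96 ± 0.069, adjusted p = 1.84e-07 and -0.96 ± 0.068, adjusted p = 3.58e-07. SCAP, the escort, was at 96.3 and 98.2 CPM in parental libraries, 67.2 and 60.3 CPM in docetaxel-resistant libraries and 83.5 and 93.1 CPM in cabazitaxel-resistant libraries. It was lower in Du145-DtxR only by the test (-0.61 ± 0.067, adjusted p = 7.14e-06), and the lines differed from each other (0.47 ± 0.067, adjusted p = 6.72e-05). In Du145-CbzR its log2 fold change of -0.14 ± 0.065, adjusted p = 0.0941 missed the threshold with all 6 libraries and passed it without Du145-CbzR replicate 2 (-0.22). INSIG2, the second INSIG protein, was the scarcest regulator per length, at 18.9 and 18.2 CPM in the Du145-P pair, 17.6 and 17.0 CPM in the Du145-DtxR pair and 15.2 and 14.98 CPM in the Du145-CbzR pair. It fell in Du145-CbzR (-0.30 ± 0.073, adjusted p = 0.00483) and gave -0.10 ± 0.073, adjusted p = 0.264 in Du145-DtxR.

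STARD4, a soluble carrier that moves cholesterol between membranes and is itself induced by SREBP-2, went the other way. Parental libraries held 63.7 and 57.7 CPM, Du145-DtxR libraries 143 and 132 and Du145-CbzR libraries 107 and 108. Every resistant library lay above every parental one, with log2 fold changes of 1.18 ± 0.061, adjusted p = 1.25e-08 in Du145-DtxR and 0.83 ± 0.061, adjusted p = 5.14e-07 in Du145-CbzR. Its level in Du145-CbzR was below that in Du145-DtxR (-0.35 ± 0.059, adjusted p = 0.000262). STARD4 was the only member with a rise of over 1 on the log2 scale in Du145-DtxR, where 6.62% of all genes did so with an adjusted p under 0.05 (20.4% in either direction).

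**Figure D2:**
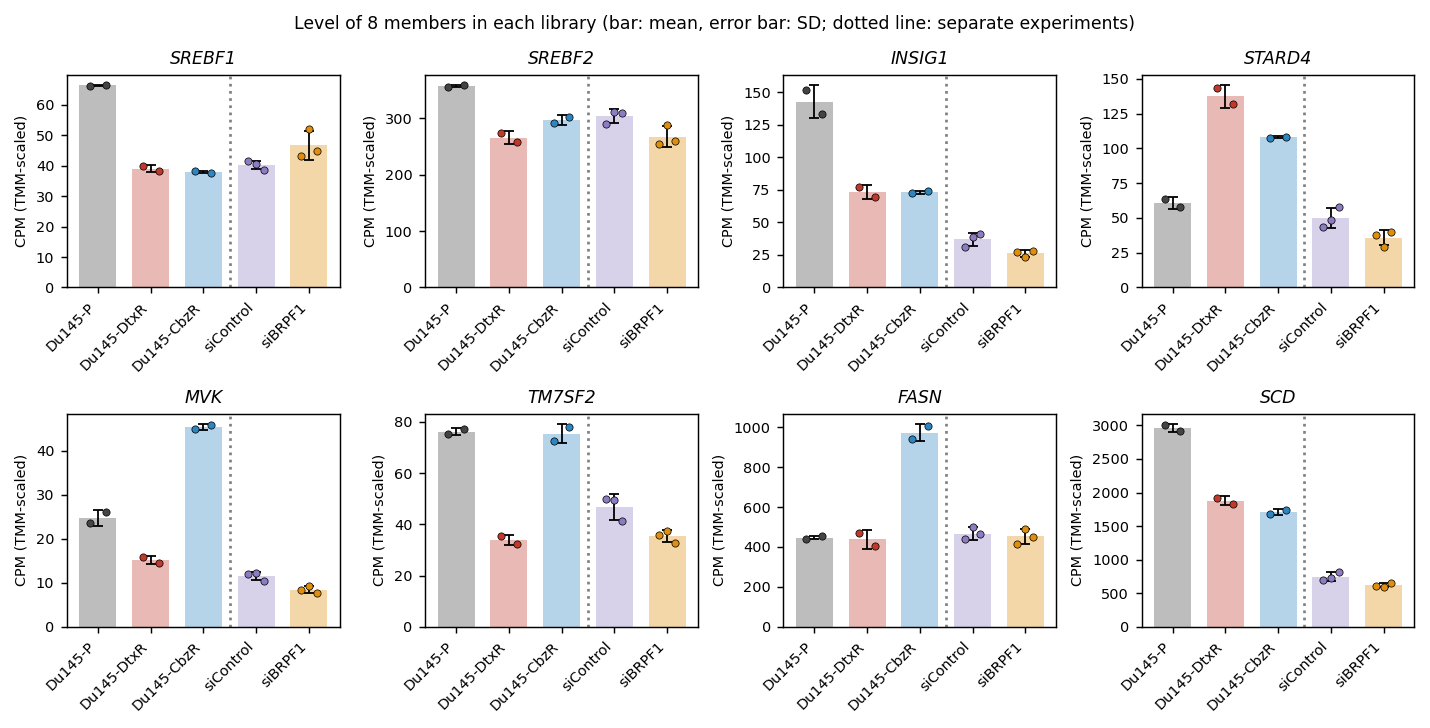
Level in CPM (y axis, TMM-scaled) of SREBF1, SREBF2, INSIG1, STARD4, MVK, TM7SF2, FASN and SCD in every library (points), with the group mean as the bar and the SD as the error bar. The dotted line separates the experiments, which are not on a shared scale. SREBF1, INSIG1 and SCD are lower in both resistant lines, STARD4 is higher in both, TM7SF2 is low only in Du145-DtxR among the 3 lines, and FASN is high only in Du145-CbzR.

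Cholesterol synthesis runs from acetyl-CoA through mevalonate and squalene to lanosterol and then cholesterol, and its 18 enzymes took different courses in the resistant lines. In Du145-DtxR 5 were higher, 9 lower and 4 not called, with a median log2 fold change of -0.12. In Du145-CbzR 12 were higher, 3 lower and 3 not called, with a median of 0.26. In the mevalonate part, ACAT2, which joins acetyl-CoA units in the cytosol, measured 92.7 and 92.1 CPM in parental libraries, 127 and 132 CPM in docetaxel-resistant libraries and 71.4 and 66.9 CPM in cabazitaxel-resistant libraries. It rose in Du145-DtxR (0.48 ± 0.051, adjusted p = 4.93e-06) and fell in Du145-CbzR (-0.42 ± 0.052, adjusted p = 3.89e-05). Its exons overlap TCP1 on the opposite strand, which moved in the same directions (1.00 and -0.72), and since no source used here gives the strand of the libraries, reads of the 2 genes cannot be told apart.

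Mevalonate kinase (MVK), which phosphorylates mevalonate, had the widest spread between the lines. It was at 23.5 and 26.0 CPM in the Du145-P pair, 15.9 and 14.5 CPM in the Du145-DtxR pair and 44.9 and 45.9 CPM in the Du145-CbzR pair, with no overlap between any of the groups. The log2 fold change was -0.70 ± 0.081, adjusted p = 1.03e-05 in Du145-DtxR and 0.88 ± 0.072, adjusted p = 1.34e-06 in Du145-CbzR. MMAB, whose exons overlap MVK on the opposite strand, gave -0.27 and 0.31. The other mevalonate enzymes HMGCS1, MVD and FDPS were each lower in Du145-DtxR (-0.24, -0.24 and -0.15) and higher in Du145-CbzR (0.43, 0.31 and 0.48). PMVK, which adds the next phosphate to the product of MVK, was higher in both lines (0.26 and 0.38), and IDI1, the isomerase of isopentenyl diphosphate, was higher in Du145-CbzR (0.51) and at -0.09 without a call in Du145-DtxR.

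Squalene synthase (FDFT1), which commits isoprenoid units to sterols, was at 272 and 281 CPM in parental libraries, 350 and 356 CPM in docetaxel-resistant libraries and 437 and 456 CPM in cabazitaxel-resistant libraries. The groups stepped upward in that order without overlap (0.35 ± 0.047, adjusted p = 3.78e-05 in Du145-DtxR and 0.69 ± 0.047, adjusted p = 2.38e-07 in Du145-CbzR). SQLE, the squalene epoxidase that follows, was instead lower in Du145-DtxR (-0.37) and higher in Du145-CbzR (0.20). LSS, which closes the ring to lanosterol, measured 75.0 and 79.8 CPM in the Du145-P pair, 56.2 and 52.4 CPM in the Du145-DtxR pair and 55.6 and 55.3 CPM in the Du145-CbzR pair, lower in both lines (-0.51 ± 0.059, adjusted p = 1.04e-05, and -0.48 ± 0.058, adjusted p = 2.94e-05).

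After lanosterol, the demethylase CYP51A1 was at 230 and 202 CPM in parental libraries, 213 and 208 CPM in docetaxel-resistant libraries and 121 and 121 CPM in cabazitaxel-resistant libraries. Only Du145-CbzR differed from parental cells by the test (-0.84 ± 0.060, adjusted p = 3.8e-07), and it was also below Du145-DtxR (-0.80 ± 0.060, adjusted p = 2.65e-07). TM7SF2, a sterol reductase of the next step, showed the reverse, with 75.1 and 77.1 CPM in the Du145-P pair, 35.3 and 32.4 CPM in the Du145-DtxR pair and 72.6 and 78.0 CPM in the Du145-CbzR pair. Its fall in Du145-DtxR was the largest of the members there (-1.17 ± 0.064, adjusted p = 1.82e-08), beside 13.8% of all genes that fell by over 1, while in Du145-CbzR it gave -0.02 ± 0.059, adjusted p = 0.853. TM7SF2 shares exon sequence with VPS51 on the same strand, which was not called in Du145-DtxR (-0.08).

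MSMO1, the methyl sterol oxidase, was at 129 and 114 CPM in parental libraries, 90.3 and 88.4 CPM in docetaxel-resistant libraries and 132 and 140 CPM in cabazitaxel-resistant libraries, lower in Du145-DtxR (-0.44 ± 0.063, adjusted p = 6.02e-05) and slightly higher in Du145-CbzR (0.16). Of the remaining enzymes, SC5D, a sterol desaturase, was higher in both lines (0.43 in each line), NSDHL was higher in Du145-CbzR (0.34), EBP was lower in Du145-DtxR (-0.17) and higher in Du145-CbzR (0.15), and DHCR7, the reductase that completes cholesterol, was higher in Du145-DtxR (0.19). HSD17B7 was called in no comparison, at 0.03 in Du145-DtxR and 0.18 in Du145-CbzR, and its pseudogene HSD17B7P2 held counts equal to 5.26% of its own. Several small differences rested on single libraries. In Du145-DtxR the calls of FDPS (-0.14), PMVK (0.16), MVD (-0.18) and DHCR7 (0.17) ended without Du145-P replicate 1, those of EBP (-0.14) and DHCR7 (0.21) without Du145-P replicate 2, those of EBP (-0.17) and DHCR7 (0.14) without Du145-DtxR replicate 1, and those of EBP (-0.17), FDPS (-0.12) and MVD (-0.12) without Du145-DtxR replicate 2. In Du145-CbzR the call of EBP ended without Du145-P replicate 1 (0.12), Du145-P replicate 2 (0.18), Du145-CbzR replicate 1 (0.19) or Du145-CbzR replicate 2 (0.13), that of MSMO1 ended without Du145-P replicate 2 (0.08), Du145-CbzR replicate 2 (0.11), Du145-DtxR replicate 1 (0.16) or Du145-DtxR replicate 2 (0.16), that of SQLE ended without Du145-P replicate 2 (0.13) or Du145-CbzR replicate 2 (0.20), and that of MVD ended without Du145-P replicate 2 (0.26). HSD17B7 passed in Du145-CbzR without Du145-P replicate 1 (0.27), and DHCR7 passed without Du145-CbzR replicate 1 (0.23).

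Fatty acid synthesis turns citrate into acetyl-CoA (ACLY), malonyl-CoA (ACACA) and palmitate (FASN), which is then elongated (ELOVL6) and desaturated (SCD, FADS1 and FADS2). Its 7 enzymes gave 2 higher (28.6%) and 4 lower (57.1%) in Du145-DtxR, with a median of -0.29, beside 31.1% and 32.0% of all genes. In Du145-CbzR 2 were higher (28.6%) and 5 lower (71.4%), with a median of -0.14, beside 24.4% and 26.3% of all genes. SCD, which makes monounsaturated fatty acids, had the highest level per kilobase of exon of the 31 members in Du145-P (565 CPM per kb, the next being ACLY at 101.2). Its level was 3004 and 2918 CPM in the Du145-P pair, 1923 and 1834 CPM in the Du145-DtxR pair and 1679 and 1742 CPM in the Du145-CbzR pair. It was lower in both lines (-0.66 ± 0.048, adjusted p = 2.24e-07 and -0.79 ± 0.048, adjusted p = 1e-07), with no overlap between the groups.

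FASN, the multidomain synthase, behaved differently in the lines, at 441 and 453 CPM in parental libraries, 472 and 404 CPM in docetaxel-resistant libraries and 943 and 1004 CPM in cabazitaxel-resistant libraries. It was 2.18-fold higher in Du145-CbzR (1.12 ± 0.067, adjusted p = 8.9e-08), whereas the Du145-DtxR libraries lay on either side of the parental ones (-0.03 ± 0.067, adjusted p = 0.719). FASN was the only member past a log2 fold change of 1 in Du145-CbzR, where 3.74% of all genes were, beside 7.88% past -1 (11.6% in either direction). ELOVL6, which extends palmitate to stearate, was at 101.2 and 89.9 CPM in the Du145-P pair, 164 and 164 CPM in the Du145-DtxR pair and 85.6 and 83.2 CPM in the Du145-CbzR pair. It rose in Du145-DtxR (0.78 ± 0.058, adjusted p = 2.44e-07) and was slightly lower in Du145-CbzR (-0.18). ACACA followed the same order, with log2 fold changes of 0.45 in Du145-DtxR and -0.14 in Du145-CbzR.

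FADS1 and FADS2, neighbouring desaturases of polyunsaturated fatty acids on chromosome 11, overlap on opposite strands. FADS1 was at 503 and 500.5 CPM in parental libraries, 305 and 305 CPM in docetaxel-resistant libraries and 425 and 434 CPM in cabazitaxel-resistant libraries, lower in both lines (-0.72 ± 0.044, adjusted p = 5.07e-08 and -0.22 in Du145-CbzR). FADS2 was at 377 and 395 CPM in the Du145-P pair, 286 and 277 CPM in the Du145-DtxR pair and 489 and 530 CPM in the Du145-CbzR pair, lower in Du145-DtxR (-0.46) and higher in Du145-CbzR (0.40 ± 0.052, adjusted p = 5.59e-05). Part of FADS2 also overlaps FEN1, which gave 0.36 and 0.23. ACLY was lower in both lines, by 0.29 in Du145-DtxR and 0.13 in Du145-CbzR. The small falls in Du145-CbzR depended on single libraries. The call of ACLY ended without Du145-P replicate 2 (-0.13), Du145-CbzR replicate 1 (-0.10) or Du145-CbzR replicate 2 (-0.14), that of ELOVL6 without Du145-P replicate 1 (-0.09), Du145-CbzR replicate 1 (-0.18) or Du145-CbzR replicate 2 (-0.16), and that of ACACA without Du145-P replicate 1 (-0.10), Du145-CbzR replicate 1 (-0.14) or Du145-CbzR replicate 2 (-0.12).

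Set against each other, the sterol branch stood above the fatty acid branch in both resistant lines. The median log2 fold change of the sterol enzymes exceeded that of the fatty acid enzymes by 0.17 in Du145-DtxR and by 0.40 in Du145-CbzR. Summed over the enzymes, the sterol branch was at 2578 ± 88.4 CPM in Du145-P, 2467 ± 31 in Du145-DtxR and 3107 ± 72.8 in Du145-CbzR (SD, n = 2). The fatty acid branch was at 5082 ± 54.6 CPM in Du145-P, 3721 ± 123 in Du145-DtxR and 4336 ± 126 in Du145-CbzR (SD, n = 2). The ratio of sterol to fatty acid CPM was accordingly 0.507 ± 0.012 in Du145-P, 0.663 ± 0.014 in Du145-DtxR and 0.717 ± 0.0040 in Du145-CbzR (SD, n = 2), without overlap between groups.

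SCD made up a large part of the fatty acid sum, and this pattern changed without it. It held 58.3% of the summed fatty acid CPM in Du145-P, 50.5% in Du145-DtxR and 39.4% in Du145-CbzR. Without SCD, an alternative chosen after its share was seen, the fatty acid sum was 2121 ± 5.68 CPM in Du145-P, 1842 ± 59.6 in Du145-DtxR and 2625 ± 80.7 in Du145-CbzR (SD, n = 2), so that Du145-CbzR lay above parental cells. The ratio of sterol to remaining fatty acid CPM was then 1.25 and 1.18 for parental libraries, 1.32 and 1.36 for docetaxel-resistant libraries and 1.19 and 1.18 for cabazitaxel-resistant libraries, the last of which reached into the parental range. The difference of the branch medians without SCD was 0.04 in Du145-DtxR and 0.39 in Du145-CbzR.

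**Figure D3:**
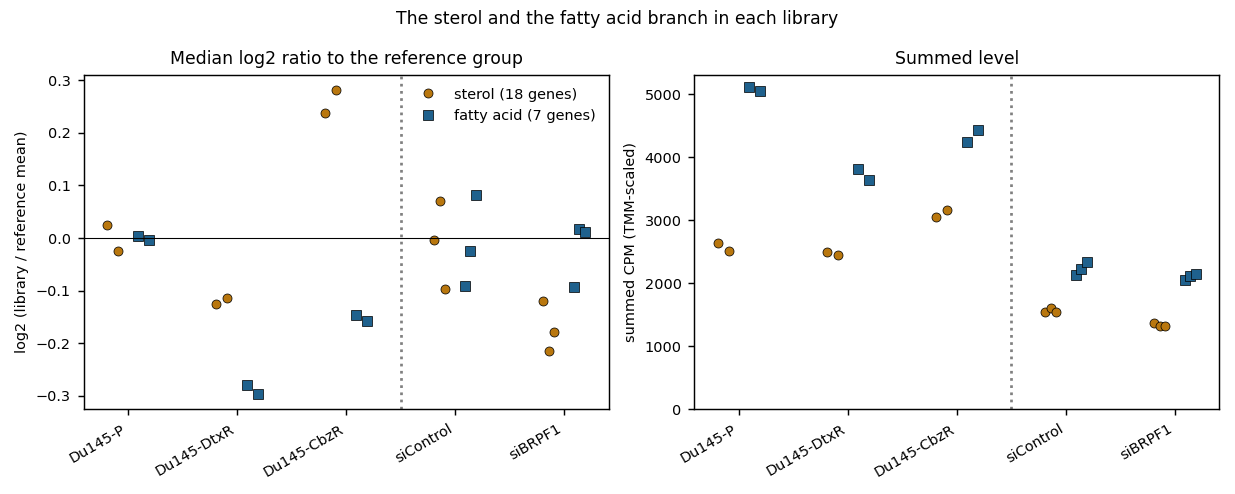
Left, the median log2 ratio of each library to the mean of its reference group (Du145-P or siControl) over the 18 sterol enzymes (circles) and the 7 fatty acid enzymes (squares). Right, the summed CPM of each branch per library, with the y axis from 0. In Du145-CbzR the sterol medians are above 0 and the fatty acid medians below it, and in the siRNA libraries the sterol sums are lower after siBRPF1.

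A direct contrast of the resistant lines asked where they differ. Against Du145-DtxR, Du145-CbzR was higher for 17 members and lower for 7, beside 31.2% higher and 31.8% lower of all genes (63.0% in either direction). Of the sterol enzymes 11 were higher and 2 lower, with a median log2 fold change of 0.35 beside 0.01 for all genes, and of the fatty acid enzymes 4 were higher and 3 lower, with a median of 0.16. MVK had the largest of these differences (1.58 ± 0.077, adjusted p = 6.45e-09), a 2.99-fold higher level in Du145-CbzR. TM7SF2 (1.15 ± 0.064, adjusted p = 1.76e-08) and FASN (1.15 ± 0.068, adjusted p = 2.99e-08) were also more than 2-fold higher, beside 12.2% of all genes past a log2 fold change of 1 and 8.71% past -1 (20.9% in either direction). In the opposite direction ELOVL6 (-0.96 ± 0.058, adjusted p = 4.11e-08) and ACAT2 (-0.90 ± 0.052, adjusted p = 2.5e-08) were lower in Du145-CbzR. FADS2 was higher (0.86 ± 0.053, adjusted p = 4.71e-08), and FADS1 less so (0.49). The difference of the branch medians was 0.19 and fell to 0.03 without SCD. The calls of INSIG2 and SCD here were small (-0.20 and -0.14). INSIG2 lost its call without Du145-DtxR replicate 1 (-0.18), Du145-DtxR replicate 2 (-0.23), Du145-CbzR replicate 1 (-0.19) or Du145-CbzR replicate 2 (-0.19), SCD without Du145-DtxR replicate 1 (-0.11), Du145-CbzR replicate 1 (-0.09) or Du145-CbzR replicate 2 (-0.16), and ACLY (0.16) without Du145-CbzR replicate 2 (0.14).

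Knockdown of BRPF1 in Du145-DtxR cells lowered a subset of the sterol genes and left most fatty acid genes without a call. Over 15704 genes tested, 2 members were higher, 9 lower and 20 not called, beside 11.6% higher and 15.1% lower of all genes, which puts members at 6.45% and 29%. The libraries of the 2 groups did not overlap for 16 of the 31 members (51.6%), beside 42.2% of all genes tested, and 26.7% of all genes were called in either direction. Median log2 fold changes were -0.13 for the sterol enzymes, -0.05 for the fatty acid enzymes and -0.01 for all genes. The largest change of a member was -0.86 on the log2 scale, beside 0.490% of all genes called past 1 and 3.34% past -1 (3.83% in either direction).

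The largest falls were at late steps of cholesterol synthesis. DHCR7 measured 222, 247 and 209 CPM in siControl and 123, 130 and 119 in siBRPF1 (-0.86 ± 0.087, adjusted p = 8.33e-05). MSMO1 measured 51.7, 58.8 and 57.8 CPM in siControl and 31.7, 31.6 and 32.6 in siBRPF1 (-0.81 ± 0.086, adjusted p = 0.000119). They stood at 0.550 and 0.570 of control, with every siBRPF1 library below every siControl library. LSS rose instead, from 37.5, 38.7 and 34.3 CPM in siControl to 51.5, 58.9 and 52.9 in siBRPF1 (0.56 ± 0.091, adjusted p = 0.00129). ACAT2 rose as well, from 37.2, 36.3 and 34.4 CPM to 50.3, 46.4 and 49.2 (0.44 ± 0.083, adjusted p = 0.00335), while its antisense partner TCP1 was at -0.20 without a call. IDI1 fell by 0.51 (adjusted p = 0.00151), and the remaining sterol calls were falls of MVK, TM7SF2 and SQLE.

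MVK was at 12.1, 12.2 and 10.4 CPM in siControl and 8.44, 9.27 and 7.62 in siBRPF1 (-0.45 ± 0.12, adjusted p = 0.0201). TM7SF2 was at 49.8, 49.5 and 41.1 CPM in siControl and 36.0, 37.3 and 32.7 in siBRPF1 (-0.41 ± 0.10, adjusted p = 0.0131). In both genes the groups lay apart, yet the call of MVK ended without siControl replicate 1 (-0.41), siControl replicate 2 (-0.41), siBRPF1 replicate 1 (-0.45) or siBRPF1 replicate 3 (-0.38), and that of TM7SF2 without siControl replicate 1 (-0.35), siControl replicate 2 (-0.35), siBRPF1 replicate 1 (-0.42) or siBRPF1 replicate 3 (-0.35). SQLE (-0.33) lost its call without siBRPF1 replicate 1 (-0.35) or siBRPF1 replicate 2 (-0.28). PMVK was at 27.7, 26.9 and 21.2 CPM in siControl and 32.0, 34.5 and 28.9 in siBRPF1 (0.33 ± 0.12, adjusted p = 0.0569). Its log2 fold change passed the test with the replicate number as a block (0.33, adjusted p = 0.00276 by edgeR), and without siControl replicate 1 (0.41) or siBRPF1 replicate 3 (0.40).

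Among regulators, INSIG1 fell from 31.2, 38.6 and 40.9 CPM in siControl to 27.3, 23.4 and 27.8 in siBRPF1 (-0.50 ± 0.12, adjusted p = 0.00996). SREBF1 was at 41.3, 40.5 and 38.6 CPM in siControl and 43.1, 51.9 and 44.8 in siBRPF1 (0.21 ± 0.094, adjusted p = 0.116), and SREBF2 at 289, 312 and 309 CPM and 254, 289 and 259 (-0.18 ± 0.081, adjusted p = 0.119). Neither passed without the replicate block, and both passed with it, with log2 fold changes of 0.21 for SREBF1 (adjusted p = 0.0287 by edgeR) and -0.18 for SREBF2 (adjusted p = 0.0164 by edgeR). RAI1, which overlaps SREBF1 on the opposite strand, was higher after siBRPF1 without the block (0.33, adjusted p = 0.0368 by edgeR). With the library strand not given, reads of RAI1 and SREBF1 cannot be told apart. SCAP and INSIG2 gave -0.00 and 0.03. STARD4 was at 43.6, 48.4 and 58.2 CPM in siControl and 37.9, 29.4 and 39.6 in siBRPF1 (-0.49 ± 0.13, adjusted p = 0.019), a call that ended without siControl replicate 2 (-0.50) or siBRPF1 replicate 2 (-0.36).

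Of the fatty acid enzymes SCD alone was called. It was at 701, 722 and 822 CPM in siControl and 614, 600 and 651 in siBRPF1 (-0.27 ± 0.084, adjusted p = 0.0358), and although the groups did not overlap, its call ended without siControl replicate 2 (-0.28), siControl replicate 3 (-0.20), siBRPF1 replicate 1 (-0.26), siBRPF1 replicate 2 (-0.23) or siBRPF1 replicate 3 (-0.30). ELOVL6 gave 0.20 ± 0.11, adjusted p = 0.206 without the replicate block and passed with it (0.20, adjusted p = 0.0138 by edgeR). FASN, ACACA, FADS1 and FADS2 gave log2 fold changes from -0.08 to -0.02 and ACLY gave 0.13, all with overlapping libraries. Summed over the branch, sterol enzymes were at 1563 ± 40.9 CPM in siControl and 1336 ± 25.2 in siBRPF1 (SD, n = 3), and fatty acid enzymes at 2229 ± 99.9 and 2103 ± 49.2 (SD, n = 3). The sterol sums did not overlap and the fatty acid sums did. The ratio of sterol to fatty acid CPM was 0.721, 0.726 and 0.660 in siControl replicates 1 to 3. It was 0.666, 0.625 and 0.617 in the same-numbered siBRPF1 libraries, lower for each replicate number although the ranges of the groups overlapped. Without SCD it was 1.07, 1.08 and 1.02 in siControl and 0.950, 0.874 and 0.885 in siBRPF1, and the groups did not overlap. The difference of the branch medians of log2 fold change was -0.08. Taken in each library against the siControl mean instead, the sterol minus fatty acid median was 0.0014 ± 0.157 in siControl and -0.150 ± 0.108 in siBRPF1 (SD, n = 3). By replicate number, the sterol minus fatty acid median went from 0.09 to -0.03, from 0.10 to -0.23 and from -0.18 to -0.19, the last nearly unchanged. The labels do not state that same-numbered libraries were paired.

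Placed beside the shift of Du145-DtxR from Du145-P, the knockdown gave a mixed picture. Of the members called in both, 6 were lower in both (MVK, SQLE, TM7SF2, MSMO1, SCD and INSIG1), ACAT2 was higher in both, STARD4 and DHCR7 were higher in Du145-DtxR and lower after siBRPF1, and LSS was lower in Du145-DtxR and higher after siBRPF1. Of all 15596 genes tested in both, 7.93% were lower in both, 6.37% higher in both, 3.67% higher in Du145-DtxR and lower after siBRPF1, and 2.08% the reverse, beside 19.4%, 3.23%, 6.45% and 3.23% of the members. The experiments share no library. No test of the difference between these shifts was run.

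The wider pathway was read from lists of other genes, whose counts stand beside the shares of all genes given above: 31.1% higher and 32.0% lower in Du145-DtxR, 24.4% and 26.3% in Du145-CbzR, and 11.6% and 15.1% after siBRPF1. Of 10 genes that process SREBP or degrade its pathway proteins, Du145-DtxR cells had 7 higher and 2 lower, and Du145-CbzR cells had 4 higher and 1 lower. MBTPS1, which encodes the protease that makes the first cut in SREBP, was lower in Du145-DtxR (-0.46, adjusted p = 3.57e-06 by edgeR). In Du145-CbzR the ER lipid raft proteins ERLIN2 and ERLIN1 were at 0.44 and -0.38. After BRPF1 knockdown 2 genes of the list rose and 2 fell. MBTPS2, the protease of the second cut, fell from 36.2 ± 3.39 to 13.5 ± 2.67 CPM (SD, n = 3, log2 fold change -1.42, adjusted p = 6.82e-05 by edgeR), and MBTPS1 rose from 98.6 ± 4.86 to 162 ± 0.38 CPM (SD, n = 3, log2 fold change 0.72, adjusted p = 0.000119 by edgeR).

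Of 17 genes of sterol uptake, storage and efflux, 4 were higher and 11 lower (64.7%) in Du145-DtxR, and in Du145-CbzR 3 were higher, 8 lower (47.1%) and 6 not called. ABCA1, the cholesterol exporter induced by oxysterols, went from 10.2 ± 0.31 CPM in Du145-P to 1.51 ± 0.0055 CPM in Du145-DtxR and 2.71 ± 0.021 CPM in Du145-CbzR (SD, n = 2), with log2 fold changes of -2.76 and -1.91. LIPA, the lysosomal acid lipase, was lower in Du145-DtxR (-0.96), and SCARB1, a lipoprotein receptor, was lower in Du145-CbzR (-0.62). Between the lines NPC2, a lysosomal sterol carrier, was higher in Du145-CbzR (1.30) and SOAT1, which esterifies cholesterol, was lower (-0.98). After siBRPF1 MYLIP, a ubiquitin ligase of lipoprotein receptors, was the 1 gene of 16 tested that fell (-0.65).

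Isoprenoid and prenylation genes, which use the same mevalonate, were higher for 6 of 9 and lower for 1 in Du145-DtxR. The subunits of the dolichol synthase, NUS1 and DHDDS, had the smallest adjusted p of the list and log2 fold changes of 0.93 and 0.92. In Du145-CbzR 3 of the 9 were higher, with COQ2 at 0.28 and DHDDS at 0.23. PDSS1 was the 1 gene of this list that rose after siBRPF1 (0.61). Of 21 genes of fatty acid supply and lipid assembly, 8 were higher (38.1%) and 9 lower (42.9%) in Du145-DtxR, where ACSS2, which makes acetyl-CoA from acetate, and DGAT2, which forms triglycerides, were at -1.45 and -1.70. In Du145-CbzR 6 were higher and 10 lower, with MID1IP1, an activator of acetyl-CoA carboxylase, at -1.02 and ACSS2 at -0.89. After siBRPF1 1 was higher and 5 lower, with MID1IP1 at -0.64 and DGAT1 at -0.64. Of 10 tested genes of fatty acid oxidation, 2 were higher and 6 lower in each resistant line, among them the regulator PPARA at -1.89 in Du145-DtxR and -0.78 in Du145-CbzR. In the knockdown 1 rose (CPT1A, 0.37) and 1 fell (PPARA, -0.57).

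CYP51A1 and INSIG1 lie on the long arm of chromosome 7 beyond ABCB1, the drug exporter gene, where levels in Du145-CbzR were low across the arm. Of 445 tested genes there, 365 (82.0%) were lower and 7 higher in Du145-CbzR against Du145-P, with a median log2 fold change of -1.02. In Du145-DtxR 162 (36.4%) were lower and 108 higher, with a median of -0.07. Among the 20 tested genes nearest to CYP51A1, 10 on each side, 19 were lower in Du145-CbzR with a median of -1.05, next to -0.84 for CYP51A1 itself. AKAP9, whose exons overlap CYP51A1 on the opposite strand, was at -1.70. The neighbours of INSIG1 had a median of -0.83 in Du145-CbzR, with 18 of 20 lower, and of -0.50 in Du145-DtxR, with 10 lower and 2 higher, next to -0.96 for INSIG1 in each line. The part of the region in these differences was not tested. Without CYP51A1 the difference of the branch medians was 0.14 in Du145-DtxR and 0.45 in Du145-CbzR. INSIG1 belongs to neither branch and does not enter that difference.

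**Figure D4:**
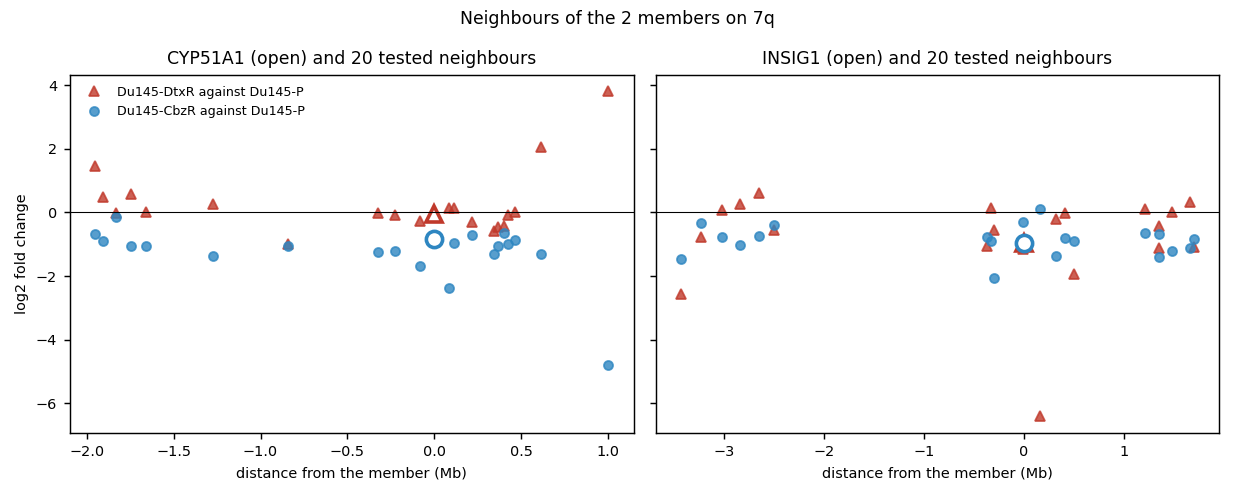
Log2 fold change (y axis) of the 20 nearest tested neighbours of CYP51A1 (left) and INSIG1 (right) by distance from the member in Mb (x axis), in Du145-DtxR (triangles) and Du145-CbzR (circles) against Du145-P. The large open symbols are the members. In Du145-CbzR 19 neighbours of CYP51A1 and 18 of INSIG1 were lower, and both members lie within the range of their neighbours.

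Elsewhere some members moved with their neighbourhood and others did not. In Du145-CbzR the 20 neighbours of MVK had a median of 0.50, with 14 higher and 1 lower, those of ACAT2 a median of -0.77, with 11 lower, and the 19 tested neighbours of LSS a median of -0.56, with 14 lower. SCD fell in Du145-CbzR while its neighbours had a median of 0.30, with 10 higher and 1 lower. FASN rose there among neighbours with a median of 0.03. SREBF1 was at -0.77 and -0.81 in the 2 lines among neighbours at 0.08 in each. TM7SF2 fell in Du145-DtxR among neighbours at 0.00, and STARD4 rose among neighbours at 0.40, of which 8 were higher. After BRPF1 knockdown the neighbours of DHCR7 and MSMO1 were at 0.01 and -0.02.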

How the data were processed

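RNA-seq of 12 Du145 libraries was analysed, in 2 experiments that were never set on a shared scale. Per the labels and the study's methods, paired-end reads were mapped by the authors with STAR against GENCODE transcripts (GRCh38), Salmon gave transcript abundances and tximport collapsed these to genes. The deposited values are estimated counts per gene, although the sheets name TPM (58.4% and 62.8% of nonzero values are exactly whole in the resistance and knockdown experiments), and versions and library strand are not given in the sources used here. Estimated counts were rounded to whole numbers, 44 PAR_Y entries were merged into their genes, and libraries held 16667822 to 30593573 counts.

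Each experiment was fitted with edgeR 4.0.16 (R 4.3.3): filterByExpr, TMM and the quasi-likelihood test, with Benjamini-Hochberg adjustment over all genes tested (18218 and 15704). A call is an adjusted p under 0.05. The SE was derived from each log2 fold change and its quasi-likelihood F statistic. Genes were placed by GENCODE 44. The scripts were tested on simulated data. The members and the other gene lists were chosen with earlier results of these data known, and genes of the other lists were named by smallest adjusted p, at most 2 per list and comparison. Members received full statistics if they regulate SREBP, passed a log2 fold change of 1, or had one of the 3 smallest adjusted p of their branch.

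Deviations of same-numbered siControl and siBRPF1 libraries correlated at r = 0.109, 0.358 and 0.57, and those of different-numbered ones at -0.55 to 0.358. The labels give only a replicate number, so whether these libraries were paired is not known. The replicate block is given where it changes a call. Alternatives were DESeq2 1.42.0 as tool or for size factors, no filter, a filter at a mean of 1 CPM, fits of the compared groups only, removal of mitochondrial genes, the replicate block, fold limits, omission of the 7q members or of SCD, and each library left out. Some genes of the lists are not reported here.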

Additional observations from a re-analysis of the deposited data

Results flagged for a closer look

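For 11 members the resistant lines moved in opposite directions from Du145-P, both shifts passed the test, and the direct contrast of the lines, Du145-CbzR against Du145-DtxR, passed it as well. The members that met all 3 conditions were 35.5% of 31, beside 10.3% of all 18218 genes tested. The direct contrast adds little here, since opposite shifts from the same parental libraries already set the lines apart. Both shifts rest on the same parental libraries, and EBP, MSMO1, SQLE, MVD, FDPS, ELOVL6 and ACACA each lost the call of at least 1 shift when 1 library was left out, as given for these genes above. Of the sterol enzymes, the log2 fold change of this contrast was 1.58 for MVK, 0.66 for HMGCS1, 0.63 for FDPS, 0.605 for MSMO1, 0.57 for SQLE, 0.55 for MVD and 0.32 for EBP, which were higher in Du145-CbzR, and -0.90 for ACAT2, which was lower. Of the fatty acid enzymes it was 0.86 for FADS2, -0.59 for ACACA and -0.96 for ELOVL6. Groups of 2 or 3 libraries were too small for a search for outlying libraries.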

How the results depend on the processing

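No member that was called in the main fit or in an alternative reversed direction between them. Changes of sign in members called in neither were not counted. Outside the omission of single libraries, member values that were called stayed so in 581 cases and lost the call in 17, and those not called stayed so in 230 and gained one in 9. With single libraries left out these numbers were 464, 58, 217 and 5. With a log2 fold limit of 1, the sterol enzymes higher and lower numbered 0 and 1 in Du145-DtxR, 0 and 0 in Du145-CbzR, 2 and 0 between the lines and 0 and 0 after siBRPF1, and the fatty acid enzymes 0 and 0, 1 and 0, 1 and 0, and 0 lower after siBRPF1, since that limit is stricter. Without a filter 3 fatty acid enzymes were lower in Du145-CbzR, and the cause was not tested.

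The sterol minus fatty acid median was 0.14 in Du145-DtxR and 0.45 in Du145-CbzR without the 7q members, of which only CYP51A1 belongs to a branch. Without SCD, an omission chosen after seeing the data, it was 0.039 in Du145-DtxR and 0.026 between the lines.

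Leaving out single libraries gave 3 to 5 higher and 6 to 9 lower sterol enzymes in Du145-DtxR. In Du145-CbzR it gave 8 to 12 higher sterol enzymes and 2 to 5 lower fatty acid enzymes, with a branch difference of 0.38 to 0.44. After siBRPF1 it gave 3 to 6 lower sterol enzymes and 0 to 1 lower fatty acid enzymes. With the replicate block, 1 fatty acid enzyme (ELOVL6) and 3 sterol enzymes were higher after siBRPF1. The resistance libraries likewise share only a number (r = -0.02, 0.241 and 0.076), and with the block 10 sterol enzymes were higher in Du145-CbzR in place of 12.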
